A study of Homo sapiens with 6 samples.

Results

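The 3 libraries described here hold the baseline transcriptome of SNU449, an established human hepatocellular carcinoma cell line, under a control siRNA. They were chosen by their label as siControl and are 3 of the 6 libraries of a bulk RNA sequencing study. The other 3 libraries received an siRNA against MAD2L1, a spindle checkpoint gene, and are not used here. All 6 were collected at day 3 from cells kept in DMEM with 10% fetal bovine serum, so the control cells carry an siRNA and are not untouched cells. The labels name a single line and do not say whether the 3 libraries came from separate cultures, so the SDs below may measure technical spread only. Levels are in TPM, an abundance with a fixed total in each library, which is scaled by transcript length and therefore allows levels of different genes to be set side by side. TPM keeps no record of sequencing depth, and read numbers are unknown, so counting error cannot be stated. Values after ± are SDs over the 3 libraries (n = 3), and 3 values in a row are siControl 1, 2 and 3.

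Hepatocytes are epithelial cells that make most plasma proteins, clear nitrogen through the urea cycle and build bile acids, under a network of transcription factors that includes the HNF4, FOXA and C/EBP families. Cells that lose epithelial character give up E-cadherin junctions and take up N-cadherin, vimentin and fibrillar collagen, a shift known as the epithelial to mesenchymal transition and driven by factors of the SNAI, ZEB and TWIST families. Liver carcinoma lines differ widely in how much of each programme they keep.

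A gene is called on here at a mean of at least 1 TPM, high at a mean of at least 100 TPM and off at no more than 0.1 TPM in every library. By these limits 12124 of 19829 protein-coding genes were on, which is 61.1%. High genes numbered 1339, or 6.75% of protein-coding genes, and off genes 4722, or 23.8%. The median protein-coding gene stood at 3.896 TPM. Over all gene types 15155 genes were on. Each library held between 24056 and 24258 genes above 0, and Pearson correlations between libraries on log2(TPM + 1) lay between 0.974 and 0.977 across genes on, which are not independent replicates. All 15 reference genes used by every cell were on, the lowest being TBP, the TATA-binding protein, at 13.1 TPM. MAD2L1 itself stood at 14.5, 13.7 and 13.9 TPM.

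**Figure D1:**
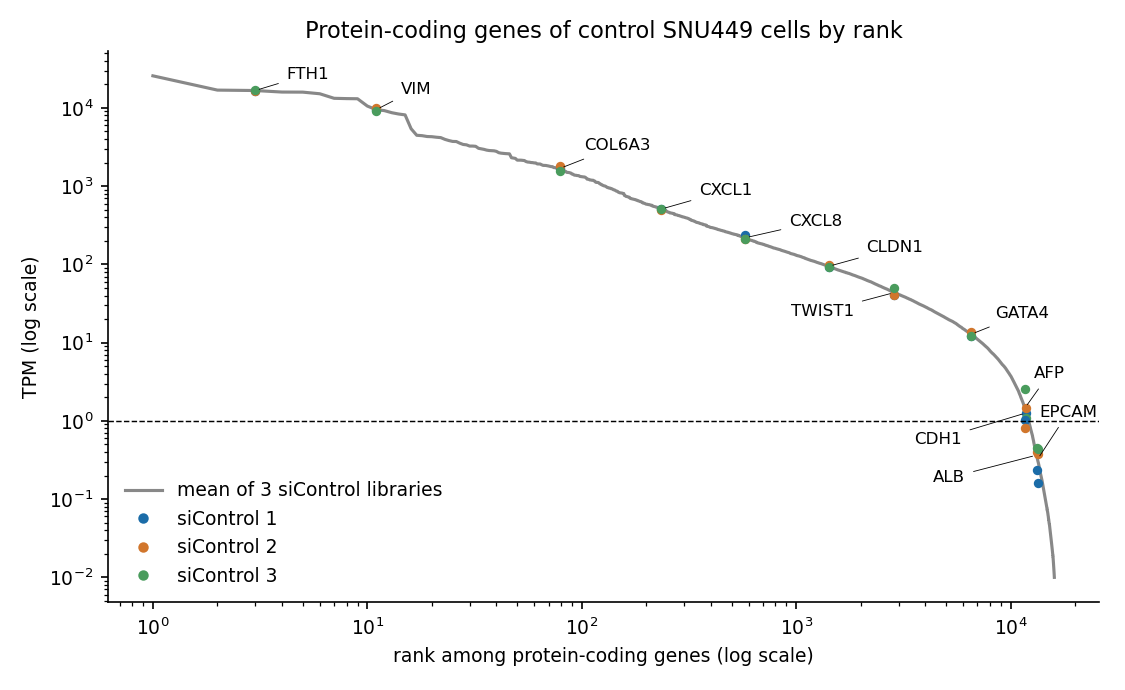
Protein-coding genes ranked by mean TPM over the 3 siControl libraries (line), with rank and TPM on log scales; coloured points give each library for 12 named genes, and the dashed line marks 1 TPM. VIM lies at rank 11, while AFP, CDH1, ALB and EPCAM lie near or under 1 TPM from rank 11645 on.

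The 25 highest genes carried 25.2% of all TPM, and the 100 highest 41.8% ± 0.367 (SD, n = 3). Of these 25 genes 11 were encoded by the mitochondrial genome, led by MT-ND4L, a subunit of respiratory complex I, at 25709.9 ± 1119 TPM, and MT-CO2, a subunit of cytochrome c oxidase, at 16888 ± 114. MT-ND4L and MT-ATP8 are short genes that overlap their neighbours MT-ND4 and MT-ATP6, so their high TPM is uncertain. Mitochondrially encoded genes together took 15.3% ± 0.0603 of TPM (SD, n = 3), and the 86 cytosolic ribosomal protein genes took 13.7% ± 0.713 (SD, n = 3). In all, 22 of the 25 genes ranked within the top 25 of every library. Order within the group is less certain, because only 9 of 24 pairs of neighbours in rank had library ranges that did not overlap.

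Nuclear genes at the top came from iron storage, glycolysis, the cytoskeleton and translation. FTH1 and FTL, the heavy and light chains of the iron store ferritin, stood at 16528, 16588 and 16931 TPM and at 12734, 13464 and 13254 TPM. The heavy chain was higher than the light chain in each library, by 1.27 ± 0.0338 times (SD, n = 3), and together they made up 2.98% of TPM. The glycolytic enzyme GAPDH followed at 10563 ± 583 TPM. VIM, the intermediate filament protein vimentin, reached 9367, 9986 and 9128 TPM, within 1.11 ± 0.0101 times of GAPDH (SD, n = 3). The actin-binding thymosins TMSB10 and TMSB4X stood at 9241 ± 68.9 and 8355 ± 693 TPM, and ACTB, cytoplasmic actin, at 8144 ± 533. EEF1A1, which brings aminoacyl-tRNA to the ribosome, had 8687 ± 309 TPM. The metal-binding protein MT2A, the lectin LGALS1, the cyclophilin PPIA and the protease inhibitor CSTB lay lower, between 3964 and 4418 TPM. Among the 100 highest nuclear protein-coding genes, 56 encoded cytosolic ribosomal proteins.

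The liver label was set against hepatocyte genes first. Of 30 proteins that hepatocytes secrete into plasma, 10 were on, 11 were low and 9 were off. The share on was 33.3% against 61.1% of all protein-coding genes. The list median was 0.332 TPM against 3.896 over all protein-coding genes. ALB, serum albumin, was found at 0.237, 0.406 and 0.451 TPM, under the limit for on in all 3 libraries. APOA1, APOA2, APOB, APOC3, TTR, F9 and GC, which encode lipoprotein proteins, transthyretin, clotting factor IX and the vitamin D carrier, were listed at 0 in every library. ALB was thus low and these 7 genes were at 0, whereas 10 other members of the list were on.

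A smaller set of secreted liver proteins was on. C3, the central complement component, stood at 115, 131 and 102 TPM and TFPI, an inhibitor of tissue factor, at 106, 116 and 95.9 TPM. CP, the copper carrier ceruloplasmin, stood at 77.6, 108 and 70.7 TPM and was highest in siControl 2. All 3 fibrinogen chains were on: FGG had 15.7 ± 1.37 TPM, FGB 7.42 ± 1.13 and FGA 4.44 ± 0.7895. FGG exceeded FGA by 3.597 ± 0.666 times and FGB by 2.15 ± 0.418 times (SD, n = 3), and the library ranges of FGG did not overlap those of FGA and FGB. The iron carrier TF had 8.83 ± 1.89 TPM. SERPINA1, alpha-1 antitrypsin, stood at 1.88 ± 0.228 TPM, AMBP at 1.59 ± 0.7497 and ORM1, an acute-phase protein, at 1.34 ± 0.581. The low members were HPX, ITIH4, ITIH3, RBP4, ALB, VTN, HP, ITIH1, F2, APOH and AHSG, with means from 0.034 to 0.581 TPM, and ITIH2 and SERPINC1 completed the members that were off.

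Hepatocyte enzymes and transporters were the other main part of the liver programme. Of 39 members 11 were on, or 28.2% against 61.1% of all protein-coding genes. Another 11 were low and 17 off, and the median was 0.111 TPM. ASS1, which joins citrulline and aspartate in the urea cycle, was the single high member, at 152, 164 and 148 TPM. ASL, the next enzyme of the cycle, had 40.1 ± 3.24 TPM and CPS1, which starts the cycle, 7.23 ± 0.326. OTC and ARG1, the steps that make citrulline and release urea, were listed at 0 in every library. ALDH2, the aldehyde dehydrogenase of ethanol breakdown, had 37.5 ± 2.83 TPM, ABCC2, a canalicular export pump, 34.1 ± 6.24 and CYP27A1, a sterol hydroxylase, 32.1 ± 2.75. PCK1 and G6PC1 of gluconeogenesis, HPD of tyrosine breakdown, and CYP8B1 of bile acid synthesis were listed at 0. CYP3A4, the main drug-metabolising cytochrome, had 0.0193 TPM, whereas its relative CYP3A5 had 7.65 ± 1.05.

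**Figure D2:**
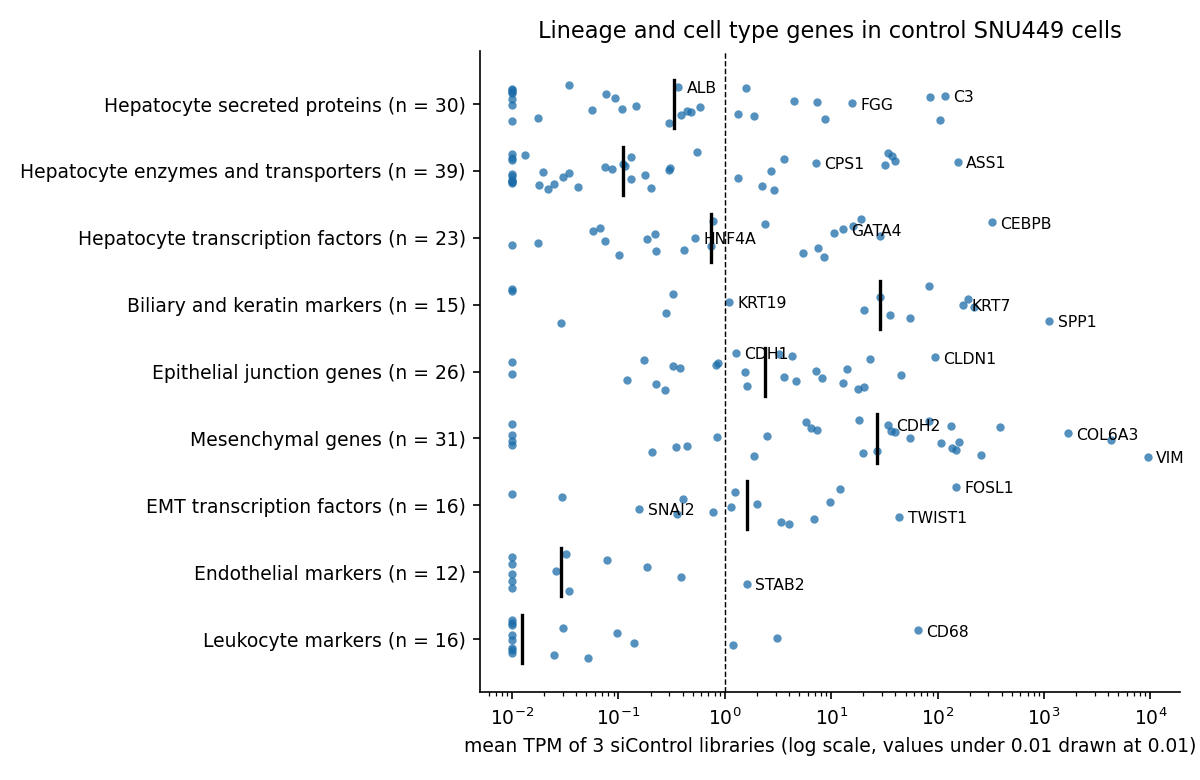
Mean TPM over the 3 siControl libraries (log scale, values under 0.01 drawn at 0.01) for the genes of 9 lists; each point is a gene, black bars are list medians and the dashed line marks 1 TPM. The median bar lies at 0.332 for hepatocyte secreted proteins and at 27.1 for mesenchymal genes.

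Of 23 transcription factors of the liver lineage 10 were on, or 43.5% against 61.1% of all protein-coding genes. CEBPB, the C/EBP member of the acute-phase response, was high at 322, 329 and 313 TPM, while CEBPA, the member linked to mature hepatocytes, was at 0.887, 0.556 and 0.888 TPM. The pioneer factor FOXA2 had 15.9 ± 2.34 TPM and the endoderm factor GATA4 12.8 ± 0.862. HNF4A, the main regulator of hepatocyte identity, was under the limit for on in each library, at 0.699, 0.564 and 0.324 TPM. The library ranges of CEBPB and CEBPA lay far apart. The xenobiotic receptor NR1I2 was listed at 0, and NR1H4, the bile acid receptor, FOXA3 and GATA6 were off.

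Markers of fetal liver and of liver cancer were mixed, with 11 of 19 on, a share near the 61.1% of all protein-coding genes. The growth factor MDK and the surface protein CD24 were high, at 223 ± 6.74 and 222 ± 8.73 TPM, and so was HMGA2, a chromatin protein of embryonic tissue, at 101 ± 5.03. All 3 IGF2 mRNA-binding proteins were on, IGF2BP1 at 33.9 ± 4.16 TPM, IGF2BP2 at 32.5 ± 1.47 and IGF2BP3 at 12.3 ± 1.205. AFP, the fetal albumin relative used as a serum marker of liver cancer, was at 1.01, 0.803 and 2.55 TPM, and siControl 3 lay above the others. GPC3, another marker of hepatocellular carcinoma, was listed at 0, as were LIN28B and LGR5.

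Keratins gave the epithelial side of the cells. KRT8 and KRT18, the keratin pair of simple epithelia including hepatocytes, stood at 219.6, 228 and 217 TPM and 189, 195 and 200.03 TPM. KRT7, a keratin of bile ducts, reached 160.3, 175 and 187 TPM, whereas KRT19, the other bile duct keratin, was at 1.17, 1.43 and 0.713 TPM. Of the 27 protein-coding genes from KRT80 to KRT18 on 12q only KRT80, KRT7, KRT8 and KRT18 were on and 21 were off. On 17q, 9 of the 64 protein-coding genes from KRT222 to EIF1 were on. The highest keratins there were KRT10 at 73.4 ± 12.1 TPM and KRT15 at 7.77 ± 0.574. In both stretches the share on lay under the 61.1% of all protein-coding genes. Of the wider bile duct list, SOX9, a factor of bile duct cells, had 55.04 ± 1.99 TPM and SPP1, osteopontin, 1124 ± 49.3.

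Genes of epithelial junctions were on at a share near that of all protein-coding genes, 16 of 26, and none was high. CLDN1, a tight junction protein, led at 93.4, 97.4 and 93.1 TPM, followed by JUP, plakoglobin, at 45.7 ± 5.77 and CLDN3 at 23.3 ± 2.11. CDH1, E-cadherin, was on only just, at 1.25, 1.47 and 1.08 TPM. EPCAM was under 1 TPM in each library at 0.323 ± 0.145, and so was the epithelial splicing factor ESRP1 at 0.38 ± 0.0413, while its relative ESRP2 had 13.9 ± 0.504. CLDN7 and GRHL2, a factor that maintains epithelium, were listed at 0.

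Mesenchymal genes stood higher, with 23 of 31 on, 10 of them high, and a median of 27.1 TPM. That is 74.2% on, against 61.1% of all protein-coding genes, whose median was 3.896 TPM. Besides VIM and LGALS1, the highest was COL6A3, the large chain of collagen VI, at 1714, 1788 and 1547 TPM. The partner chains COL6A1 and COL6A2 had 36.3 ± 4.31 and 39.6 ± 6.24 TPM, and COL6A3 exceeded COL6A1 by 46.8 ± 6.21 times (SD, n = 3). The collagen I chains COL1A2 and COL1A1 had 385, 410.04 and 371 TPM and 129, 154 and 116 TPM, a ratio of 2.95 ± 0.277 (SD, n = 3). SPARC, a collagen-binding matrix protein, stood at 149.6 ± 1.29 TPM, the ectonucleotidase NT5E at 108 ± 8.54 and the receptor AXL at 83.4 ± 5.61. CDH2, N-cadherin, stood at 35.3, 35.9 and 31.6 TPM, which is 27.3 ± 2.598 times CDH1 (SD, n = 3), with no overlap between the library values of both cadherins. Not every mesenchymal gene was on: CDH11, PDGFRA, DCN and LUM, which mark fibroblasts, were listed at 0.

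The factors that drive the epithelial to mesenchymal transition were on in 10 of 16 cases, a share near the 61.1% of all protein-coding genes. FOSL1, a partner in the AP-1 complex, was high at 147, 158 and 141 TPM and TWIST1 stood at 40.6, 40.7 and 49.6 TPM. FOXC2 had 12.2 ± 0.476 TPM, RUNX1 9.66 ± 1.45, TWIST2 6.92 ± 1.63, ZEB2 4.004 ± 0.6902, ZEB1 3.38 ± 0.433, RUNX2 2.004 ± 0.266, MSX1 1.25 ± 0.204 and SNAI1 1.15 ± 0.284. The ranges of ZEB1 and ZEB2 overlapped. SNAI3, PRRX2, TCF4 and SNAI2 were low, with means from 0.157 to 0.771 TPM, PRRX1 was off and MSX2 was listed at 0.

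Endothelial and leukocyte markers were mostly off, while stellate cell markers were on at a share near that of all protein-coding genes. Of 12 endothelial markers only STAB2 was on, at 0.733, 1.78 and 2.29 TPM, 8 were off, and the summed level of the list ran from 1.21 to 3.55 TPM over the libraries; CDH5 and VWF stood at 0.032 and 0.034 TPM. Of 16 leukocyte and blood markers 3 were on and 10 off, and the pan-leukocyte gene PTPRC had 0.025 TPM, but CD68, a lysosomal protein, stood at 65.8 ± 3.55. Summed over the list, leukocyte markers ran from 67.6 to 75.1 TPM. Of 10 stellate cell markers 7 were on, which is 70% against 61.1% of all protein-coding genes. None was high, and the list median was 1.46 TPM against 3.896 over all protein-coding genes. The list was led by RGS5 at 39.4 ± 7.12 TPM and LHX2 at 9.48 ± 1.55. DES was low at 0, 0 and 0.104 TPM and HAND2 was listed at 0. The sum of the stellate list ran from 51.5 to 70.8 TPM. In bulk RNA, few cells with much of a transcript and many cells with little of it cannot be told apart. Of 15 muscle and neural genes 4 were on, among them TUBB3, a tubulin of neurons, at 809.8 ± 43.3 TPM and TNNT1, slow muscle troponin T, at 297 ± 5.22.

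Regional identity genes of the HOX clusters were mostly under 1 TPM. In HOXB, 5 of the 9 genes from HOXB1 to HOXB9 were on, HOXB5 to HOXB9, with HOXB7 highest at 11.2 ± 1.899 TPM. HOXA10, HOXA11 and HOXA13 were on in HOXA, at 2.55, 1.43 and 2.55 TPM. In HOXC only HOXC4 was on, at 1.203 ± 0.444 TPM, and in HOXD no HOX gene was on.

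The stretch of 4q from GC to AREG (chr4:71741693-74455009, GENCODE 29 on GRCh38) holds 4 liver genes, of which only AFP was on, and chemokine genes beyond them. Of the chemokine genes CXCL1, CXCL2, CXCL3, CXCL5, CXCL6 and CXCL8 were on and PF4, PF4V1 and PPBP were off. In the whole stretch 12 of 22 protein-coding genes were on, near the 61.1% of all protein-coding genes. These 22 genes include ALB, AFP and AFM of the albumin family and, starting 319 kb beyond the end of ALB, the genes of CXC chemokines that attract neutrophils. GC and AFM were listed at 0, ALB was low and AFP was on only just, at a mean of 1.46 TPM. RASSF6, the gene after AFM, had 0.192 ± 0.0935 TPM. CXCL8, interleukin 8, stood at 234, 209 and 214 TPM, CXCL6 at 86.04 ± 8.07 TPM and CXCL1, the highest gene of the stretch, at 511, 502 and 517 TPM. CXCL2 had 61.9 ± 6.58 TPM, CXCL3 17.4 ± 2.76 and CXCL5 5.58 ± 0.907, while the platelet chemokine genes PF4 and PF4V1, which lie among these, were listed at 0 and PPBP was off. EREG and AREG, ligands of the EGF receptor, closed the stretch at 23.9 ± 1.497 and 12.4 ± 0.361 TPM.

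**Figure D3:**
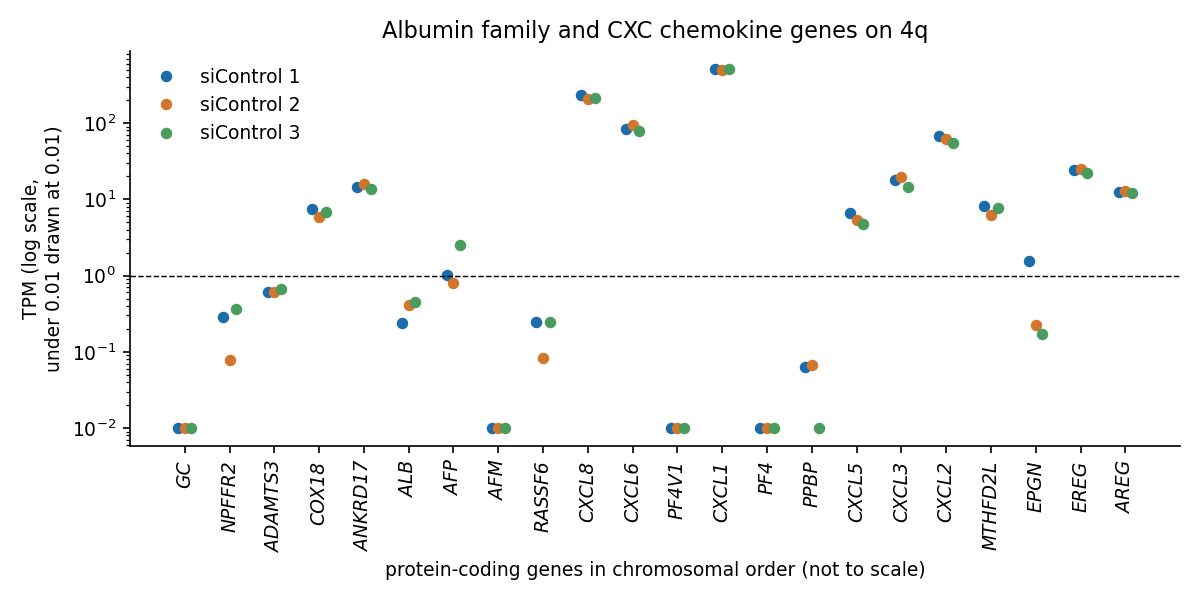
TPM (log scale, values under 0.01 drawn at 0.01) of the 22 protein-coding genes from GC to AREG on 4q in chromosomal order, with 1 point per siControl library; the dashed line marks 1 TPM. Every ALB and RASSF6 value lies under 1 TPM and every CXCL8, CXCL6 and CXCL1 value at 79.9 or more.

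The sequences before the starts of ALB and CXCL8 are shown because the first gene was under 1 TPM and the second high in every library of the same stretch, together with CXCL1 and, from 11q, GSTP1, a glutathione transferase listed at 0. Each is the 250 bases before the start in the RefSeq table (GRCh38.p14), on the plus strand. Capitals in the first 3 mark matches on either strand to TATAAA, the TATA box; to CCAAT, the CCAAT box; to TGACTCA, an AP-1 motif; and to GGAATTTCC, an NF-kappaB motif. Capitals in the last mark CG pairs.
ALB, chr4:73404037-73404286: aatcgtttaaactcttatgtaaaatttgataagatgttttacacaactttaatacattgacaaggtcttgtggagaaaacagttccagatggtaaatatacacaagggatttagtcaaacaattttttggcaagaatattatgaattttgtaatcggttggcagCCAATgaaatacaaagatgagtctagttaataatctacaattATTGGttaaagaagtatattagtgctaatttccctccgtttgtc
CXCL8, chr4:73740319-73740568: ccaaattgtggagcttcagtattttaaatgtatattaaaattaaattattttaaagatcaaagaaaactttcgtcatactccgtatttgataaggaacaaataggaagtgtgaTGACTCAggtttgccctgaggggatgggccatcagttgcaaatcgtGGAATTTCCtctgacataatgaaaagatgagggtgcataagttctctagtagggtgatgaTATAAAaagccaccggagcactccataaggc
CXCL1, chr4:73869143-73869392: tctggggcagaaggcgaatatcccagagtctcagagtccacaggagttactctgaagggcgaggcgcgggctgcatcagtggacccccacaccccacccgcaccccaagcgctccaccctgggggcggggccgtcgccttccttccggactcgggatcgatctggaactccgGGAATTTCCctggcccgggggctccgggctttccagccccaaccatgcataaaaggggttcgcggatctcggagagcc
GSTP1, chr11:67583562-67583811: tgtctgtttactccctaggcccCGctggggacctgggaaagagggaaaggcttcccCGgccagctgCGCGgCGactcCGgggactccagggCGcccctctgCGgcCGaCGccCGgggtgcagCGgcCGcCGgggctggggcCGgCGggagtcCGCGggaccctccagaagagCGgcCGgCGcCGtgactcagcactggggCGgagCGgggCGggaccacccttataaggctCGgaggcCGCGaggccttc
The ALB sequence holds CCAAT matches from 86 to 82 and from 44 to 40 bases before the start, and none of the other motifs. CXCL8 has a TATAAA from 31 to 26 bases before the start, a TGACTCA from 137 to 131 and a GGAATTTCC from 91 to 83, and CXCL1 has a GGAATTTCC from 78 to 70. The sequence of GSTP1, which was listed at 0, also holds a TGACTCA, left in lower case above. These motifs differ in how common they are. Over the 300-base RefSeq windows of 15140 nuclear protein-coding genes, TATAAA was found in 9.76%, CCAAT in 36.9%, TGACTCA in 3.59% and GGAATTTCC in 0.423%. By level, TGACTCA was found in 4.83% of off genes, 5% of low genes, 2.77% of genes on but not high and 3.69% of high genes. For GGAATTTCC these shares were 0.328%, 0.534%, 0.428% and 0.461%. Neither motif was therefore most common among high genes. A match describes the letters only, and no binding was measured.

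Promoter letters and level were then set side by side across genes. CpG-rich windows, defined by a GC content of at least 50% and an observed over expected CG ratio of at least 0.6, made up 64.9% of the 15140. Their share was 26.5% among 3355 off genes, 40.8% among 2060 low genes, 82.7% among 8641 genes on but not high and 86.8% among 1084 high genes. TATAAA was found in 20.7% of off genes, 12.8% of low genes, 4.98% of genes on but not high and 8.03% of high genes. Of the 20 hepatocyte secreted genes with a window, 1 was CpG-rich, as were 4 of 26 hepatocyte enzymes and transporters, against 11 of 14 epithelial junction genes and 8 of 19 mesenchymal genes. GSTP1 had 28 CG pairs in the 250 bases shown, a CpG-rich window, and was listed at 0. Other listed genes that were off with a CpG-rich window included CDKN2A, CDKN2B, TIMP3, CXCL12, CXCL14, KIT and ID4. DNA methylation was not measured.

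The other liver gene clusters differed in how many of their genes were on. In the fibrinogen stretch on 4q all 5 protein-coding genes were on, the 3 chains and their neighbours PLRG1 at 61.6 ± 0.111 TPM and LRAT at 3.51 ± 1.32. On 11q the 4 apolipoprotein genes APOA5, APOA4, APOC3 and APOA1 were listed at 0 between ZPR1 at 22.1 ± 2.16 TPM and SIK3 at 6.498 ± 0.418. On 19q APOE, a lipoprotein ligand of the LDL receptor, stood at 333, 339 and 351 TPM and APOC1 at 13.2 ± 1.66, while APOC4 was listed at 0 and APOC2 had 0.235 ± 0.126. CLU, clusterin, had 344 ± 12.2 TPM, and its range overlapped that of APOE. Of 19 apolipoprotein and lipoprotein assembly genes 6 were on and 9 off, or 31.6% and 47.4%. Over all protein-coding genes 61.1% were on and 23.8% off. In the SERPINA cluster on 14q the highest gene was SERPINA3, alpha-1 antichymotrypsin, at 175, 193 and 171 TPM. SERPINA5 followed at 9.21 ± 0.721, and SERPINA11, SERPINA9, SERPINA12 and SERPINA4 were listed at 0.

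A longer stretch with no gene on lay on 9p. From SLC24A2 to ELAVL2 (chr9:19507452-23826337, GENCODE 29 on GRCh38), over 4.32 Mb, all 27 protein-coding genes were under 1 TPM. Of these 25 were off, 24 of them at 0 in every library, against 23.8% off over all protein-coding genes. The bounds were set after values were seen and leave out 2 neighbours that were on, so they partly fix these counts. With both included, from RPS6 to ELAVL2, 25 of 29 protein-coding genes were off and 2 were on. MTAP and ELAVL2 were low, and the highest value in any library was 0.144 TPM. Such runs were also found elsewhere. Among runs of neighbouring off genes, the 21 genes from SLC24A2 to IFNE came 8th by number of genes, and the longest run held 51. Among genes with a CpG-rich window alone, the 5 from SLC24A2 to KLHL9 came 4th, tied with other runs of 5. The longest such run held 6. The genes of the 9p stretch were 16 interferon genes and 11 others. Those others include MLLT3, a chromatin reader, FOCAD, KLHL9, an adaptor of a ubiquitin ligase, MTAP, which salvages methionine, and CDKN2A and CDKN2B, which encode inhibitors of the cyclin D kinases. MTAP was found at 0.058, 0.115 and 0.064 TPM, and CDKN2A and CDKN2B were listed at 0. Of the 23 genes with a RefSeq window 9 were CpG-rich, against 64.9% of all genes with a window and 26.5% of off genes. These 9 include MLLT3, FOCAD, KLHL9, MTAP, CDKN2A and CDKN2B, whereas the interferon genes with a window were not CpG-rich. Outside the stretch, on the SLC24A2 side, RPS6, a ribosomal protein, stood at 1826 ± 57.1 TPM and ACER2, a ceramidase, at 1.996 ± 0.298. Genes past ELAVL2 are not described here. DNA copy number was not measured.

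Secreted signals were described by list. Of 43 chemokines and cytokines 29 were on and 8 high, with a median of 13.4 TPM. The share on, 67.4%, was near the 61.1% of all protein-coding genes, whose median was 3.896 TPM. MIF, an inhibitor of macrophage migration, stood at 1548 ± 18.1 TPM, SPP1 at 1101, 1181 and 1091 TPM and GDF15, a stress-induced member of the TGF-beta family, at 1061, 1172 and 982 TPM. IL32, IL6 and LIF, inflammatory cytokines, had 402 ± 15.7, 96.03 ± 8.84 and 115 ± 8.48 TPM. CCL20, a chemokine for lymphocytes, had 28.1 TPM and CCL2, which attracts monocytes, 18.3 ± 0.901. In contrast CXCL9, CXCL10 and CXCL11, which interferon induces, and CXCL12 and CXCL14 were listed at 0 in every library.

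**Figure D4:**
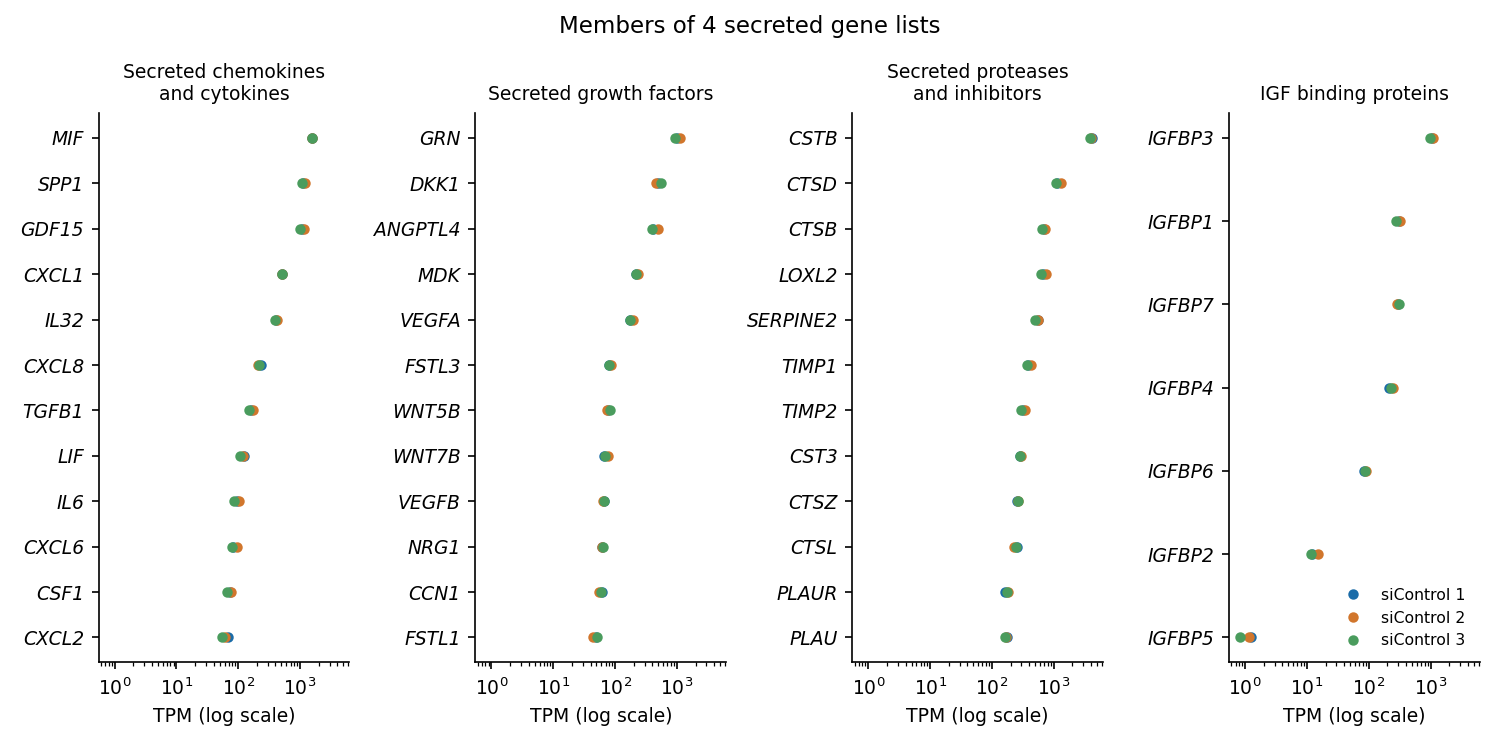
TPM (log scale) in each siControl library for up to 12 of the highest members of 4 lists of secreted proteins; each point is 1 library. The 3 points of most genes nearly coincide, from CSTB at 3964 TPM and MIF at 1548 TPM down to IGFBP5 at 1.08 TPM.

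Growth factors and their antagonists were on in 34 of 46 cases, or 73.9% against 61.1% of all protein-coding genes. GRN, progranulin, had 1009 ± 88.1 TPM, DKK1, a secreted blocker of Wnt receptors, 499, 457 and 549 TPM, ANGPTL4, an inhibitor of lipoprotein lipase, 432 ± 53.7 and VEGFA, the main angiogenic factor, 183 ± 11.7. EGF, HGF, IGF1, PTN and FST were listed at 0. All 7 IGF binding proteins were on: IGFBP3 led at 1074, 1079.5 and 989.7 TPM, IGFBP1, IGFBP7 and IGFBP4 had 300.2 ± 25.1, 296 ± 15.6 and 228 ± 15.1, IGFBP6 had 87.2 ± 1.99, IGFBP2 12.9 ± 1.94 and IGFBP5 1.08 ± 0.2104. The ranges of IGFBP1 and IGFBP7 overlapped, so their order is uncertain.

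Proteases, their inhibitors and matrix proteins were mostly on, at 76.9% of proteases and inhibitors and 87.8% of matrix genes. Among all protein-coding genes 61.1% were on. Of 39 proteases and inhibitors 30 were on and 16 high, with the lysosomal protease CTSD at 1189 ± 120.4 TPM, LOXL2, a collagen cross-linker, at 681 ± 61.05 and the metalloproteinase inhibitor TIMP1 at 399 ± 28.8. PLAU, urokinase, and its receptor PLAUR had 169 ± 6.23 and 174 ± 8.91 TPM, with overlapping ranges. Collagenase MMP1 stood at 105 ± 8.17 TPM among neighbours on 11q that included MMP7 at 5.13 ± 0.198 and MMP8, MMP12 and MMP27 at 0. TIMP3 and the serpins SERPINB2 and SERPINB5 were listed at 0. Of 41 basement membrane and matrix genes 36 were on, led by TGFBI at 321 ± 11.97 TPM and the laminin chain LAMC1 at 248 ± 12.2. On the receiving side 21 of 26 integrins and adhesion receptors were on, with ITGB1 at 805 ± 50.4 TPM, ITGA3, a laminin receptor chain, at 661 ± 62.2 and CD44, a hyaluronan receptor, at 652 ± 36.8.

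Receptors and signalling genes were counted in the same way, against 61.1% of all protein-coding genes on. Hedgehog genes and nuclear receptors lay near that share, at 57.1% and 65.8%. Of 33 receptor tyrosine kinases 17 were on and FGFR1 alone was high, at 129.8, 139 and 130.3 TPM. AXL followed, then MET, the HGF receptor, at 81.5 ± 11.3 TPM and EPHA2 at 56.3 ± 0.995, while KIT, ALK and PDGFRA were listed at 0. All 22 Hippo pathway genes and YAP targets were on, with YAP1 at 23.2 ± 3.03 TPM, its relative WWTR1 at 37.1 ± 3.498 and the target ANKRD1 at 77.4 ± 3.63. In the Wnt pathway 27 of 33 were on, but LEF1 and LGR5 were listed at 0 and the feedback gene AXIN2 had 3.45 ± 0.508 TPM. Of the TGF-beta and BMP list 23 of 27 were on, led by ID1, a BMP-induced inhibitor of helix-loop-helix factors, at 369 ± 5.103 TPM, with ID4 at 0. In Notch 14 of 20 were on, led by HES4 at 60.4 ± 3.596, and in Hedgehog 8 of 14, with the receptor SMO at 32.7 ± 2.86 and the ligand SHH at 9.07 ± 0.411. JAK-STAT genes were on in 24 of 31 cases, with OSMR, the oncostatin M receptor, at 62.3 ± 4.21 TPM and LIFR at 0.215 ± 0.0467. Of 38 nuclear receptors 25 were on, led by the oxysterol receptor NR1H2 at 117 ± 4.44 TPM and the COUP factor NR2F2 at 80.3 ± 0.978; ESR1 was off and PGR listed at 0.

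**Figure D5:**
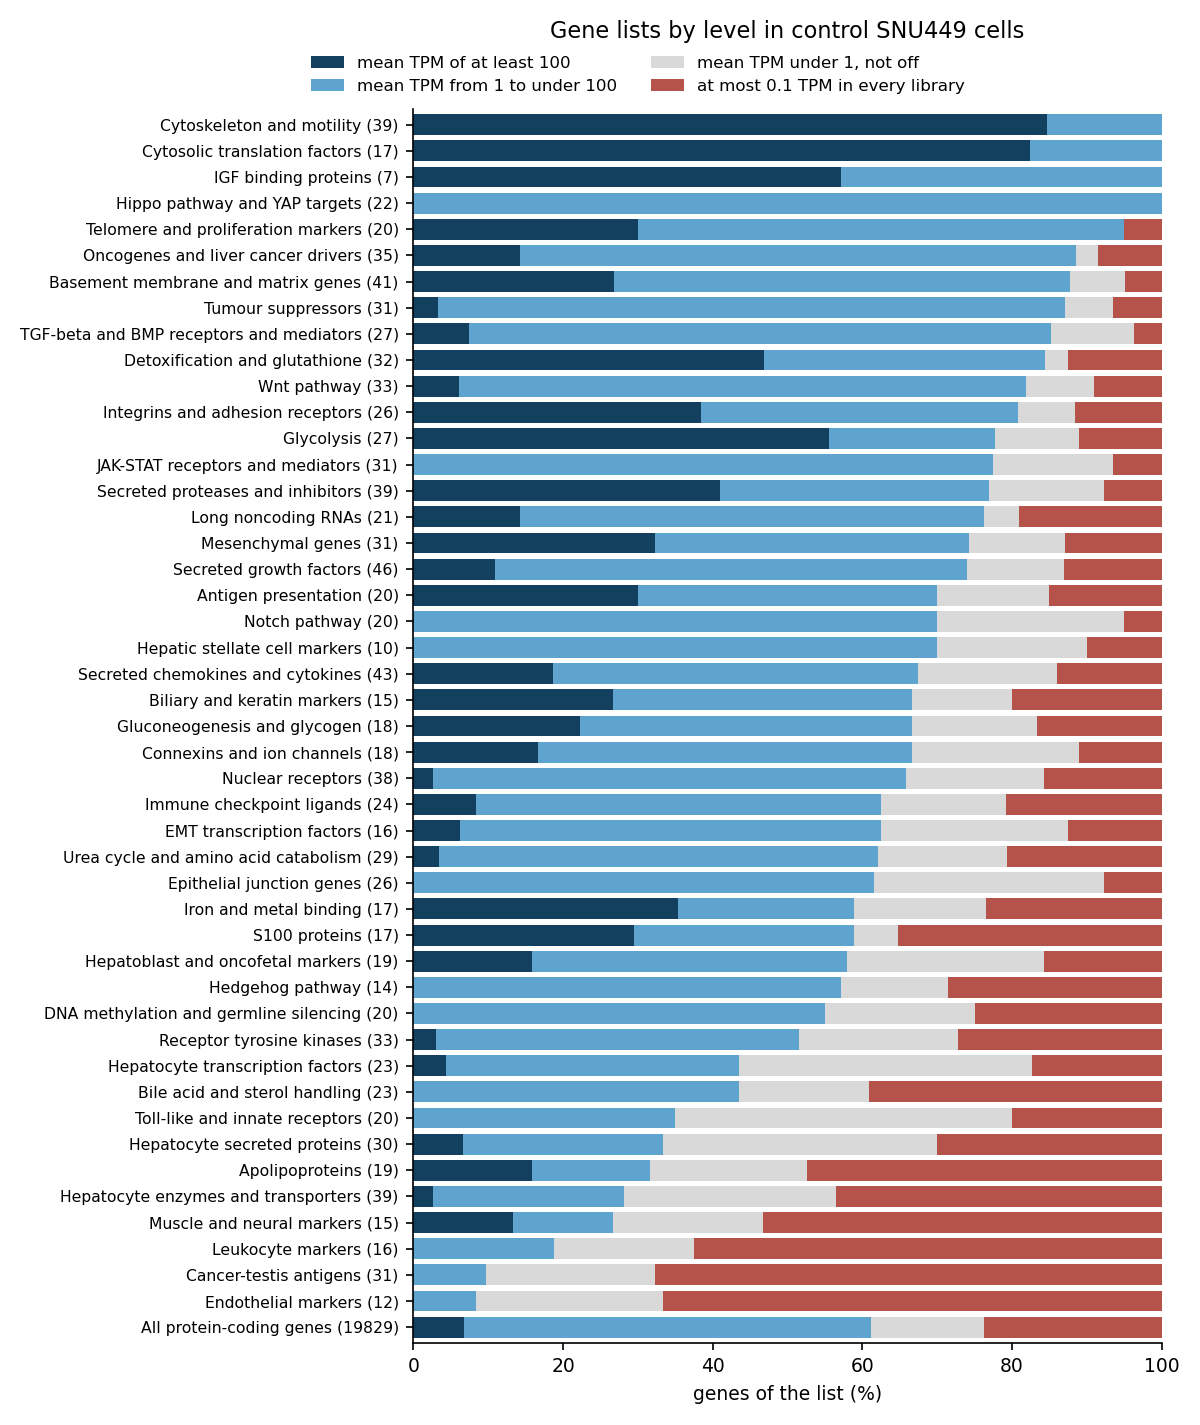
Share of genes (%) in each gene list by level over the 3 siControl libraries, with list sizes in parentheses and all 19829 protein-coding genes at the bottom. Lists are ordered by the share on, from cytoskeleton genes (39 of 39) to endothelial markers (1 of 12), against 61.1% of all protein-coding genes.

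Immune recognition genes split by class. HLA-B and HLA-C, which present peptides to cytotoxic T cells, had 232 ± 19.4 and 554 ± 16.1 TPM, and B2M, their shared light chain, 582 ± 23.8. Class II genes HLA-DRA and HLA-DQA1 were listed at 0 and their regulator CIITA had 0.252 ± 0.123 TPM. Among 24 checkpoint ligands 15 were on, a share near the 61.1% of all protein-coding genes. CD276 stood at 65.6 ± 3.79 TPM and PVR at 59.5 ± 3.41, while CD274, PD-L1, stood at 1.92, 0.826 and 0.815 TPM. Innate sensors were low, 7 of 20 being on, with MYD88 at 20.8 ± 1.56 TPM and the cytosolic DNA pathway members CGAS at 3.18 ± 0.129 and STING1 at 0.189 ± 0.187. Of 31 genes listed as cancer-testis antigens 3 were on and 21 off. LAGE3 alone, at 75.1 ± 5.21 TPM, made up most of the summed level of the list, 80.8 TPM.

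Growth control genes were mostly on. Of 20 proliferation and telomere genes 19 were on, among them TK1, thymidine kinase, at 416 ± 10.03 TPM and MKI67 at 38.8 ± 4.78. TERT, the catalytic subunit of telomerase, averaged 1.25 TPM, but siControl 2 at 2.898 lay well above the others at 0.37 and 0.467, and TERC was listed at 0. MYC stood at 51.1 ± 2.74 TPM and CCND1, cyclin D1, at 63.6 ± 2.06, while CCND2 and MYCN were listed at 0. CDK4 had 297 ± 10.8 TPM, 62.1 ± 10.3 times CDK6 (SD, n = 3). Of 31 tumour suppressors 27 were on, including the kinase inhibitor CDKN1A at 121 ± 8.101 TPM. Of 20 genes of DNA methylation, Polycomb and the germline 11 were on, or 55% against 61.1% of all protein-coding genes. DNMT1 led at 38.7 ± 0.686 TPM, and DNMT3L, DAZL and PIWIL1 were listed at 0.

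In central metabolism the liver forms of several enzymes were low or off, but not all. Glycolysis genes were on in 21 of 27 cases and high in 15. ALDOA, an aldolase, had 3159.9, 3522 and 3081 TPM. PKM had 2148 ± 118 TPM and PKLR, the form of liver and red cells, was off, while GYS1, glycogen synthase of muscle and most tissues, had 242 ± 23.02 and GYS2, the liver form, 0.13 ± 0.05103. Glycogen phosphorylase differed less: PYGL, the liver form, was high at 137 ± 8.51 TPM, and PYGB, the brain form, had 464 ± 40.7, or 3.39 ± 0.134 times PYGL (SD, n = 3). Lactate dehydrogenase was almost wholly LDHA, the main form of liver and muscle, at 3467, 3249 and 3403 TPM, with LDHB, the heart form, at 1.81, 0.338 and 1.26 TPM. Of the hexokinases HK1 had 138 ± 9.67 TPM and HKDC1 109.9 ± 8.27, against 0.804 ± 0.0743 for HK2. SLC2A1, the widespread glucose transporter, had 405 ± 61.9 TPM and the liver transporter SLC2A2 0.75 ± 0.212. Of 18 genes of gluconeogenesis and glycogen 12 were on, and in urea cycle and amino acid catabolism 18 of 29. These shares, 66.7% and 62.1%, lie near the 61.1% of all protein-coding genes. In the second list GOT2 came after ASS1 at 87.5 ± 4.51 TPM. Of 23 bile acid and sterol genes 10 were on, led by the cholesterol exporter ABCA1 at 44.8 ± 5.36 TPM.

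Genes of defence against reactive compounds were mostly on, at 84.4% against 61.1% of all protein-coding genes. Of 32 detoxification genes 27 were on and 15 high, the highest being the aldo-keto reductases AKR1B1 at 1203, 1168 and 1232 TPM and AKR1C1 at 898 ± 37.4. AKR1C1 and AKR1C2 are close copies whose reads may be split between them. HMOX1, heme oxygenase, and NQO1, a quinone reductase, had 425 ± 41.8 and 386 ± 12.01 TPM. Against these levels the glutathione transferases GSTP1, GSTA1, GSTA2 and GSTM1 were listed at 0, whereas GSTO1 had 452 ± 5.81 TPM and GSTM3 128 ± 8.603. On 16q MT2A stood at 4443, 4178 and 4634 TPM, MT1X at 212 ± 5.44 and MT1E at 162 ± 27.98, with MT1M, MT1B and MT1H of the same cluster listed at 0. TFRC, the transferrin receptor, had 110.3 ± 7.01 TPM and HAMP, the liver iron hormone hepcidin, 0.226 ± 0.292.

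Structural genes were on throughout: 39 of 39 cytoskeleton genes, 33 of them high, and 17 of 17 translation factors. PFN1 and CFL1, actin regulators, had 2642 ± 38.9 and 1728 ± 23.2 TPM, and CAV1, the caveolar coat protein, 331 ± 9.36. On 1q S100A6, S100A11 and S100A10, small calcium-binding proteins, stood at 2999 ± 317, 1794 ± 95.4 and 943 ± 36.6 TPM on either side of an epidermal gene block in which 51 neighbouring protein-coding genes from RPTN to S100A7 were off. Among 18 connexins and channels 12 were on, a share near the 61.1% of all protein-coding genes. KCNMA1, the large-conductance potassium channel, stood at 250.4 ± 2.002 TPM and GJA1, connexin 43, at 78.04 ± 1.76. Of 21 long noncoding RNAs 16 were on, GAS5 leading at 387 ± 16.9 TPM, with HOTAIR at 0. Over all lincRNA and antisense genes, 2 classes of noncoding RNA, 1380 of 13017 were on. By the words of the gene descriptions, 52 of 52 genes named for NADH:ubiquinone oxidoreductase, respiratory complex I, 41 of 41 tRNA synthetase genes and 78 of 79 mitochondrial ribosomal protein genes were on, against 2 of 388 olfactory receptor genes and 0 of 44 defensin genes; these words were chosen after values were seen.

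The 3 libraries differed little for well expressed genes. Among protein-coding genes from 1 to 10 TPM the median coefficient of variation was 15.1%, from 10 to 100 TPM it was 7.57% and from 100 TPM up 4.98%. Of 7668 genes with a mean of at least 10 TPM, 66 differed by 2-fold or more between the highest and the lowest library, or 0.861%. The 5 protein-coding genes with the widest range were H2AC18, the gene listed as ENSG00000283149, SMN2, SMIM11A and U2AF1L5, and 4 of them have a near-identical copy in the genome, named here after values were seen. SMN2 stood at 1.71, 17.6 and 21.3 TPM and its copy SMN1 at 27.7, 13.2 and 16.2 TPM, but their sum at 29.4, 30.8 and 37.5 TPM, a ratio of 1.28 between the highest and lowest library against 12.5 for SMN2 alone. The sums of H2AC18 with H2AC19, U2AF1 with U2AF1L5 and SMIM11A with SMIM11B varied by 1.12, 1.19 and 1.22 times. Levels of such copies are uncertain one by one.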

How the data were processed

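Bulk RNA of SNU449 cells was measured in 3 siControl libraries. The deposited values are TPM made by the authors, 1 column per library, with an equal total in each. The submitters' processing notes name fastp, HISAT2, DESeq2 1.16.1 and the build hg38, and for the read counter, annotation and strand setting nothing is stated there. Rows numbered 60589, of which 357 carry an assembly identifier alone. Symbols came from the table and positions and gene types from GENCODE 29, which held 57974 rows.

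From these values means, SDs, ranks and counts past the limits were computed with Python 3.11.15, pandas 2.3.3 and numpy 2.4.6, and the counting rules were tested on simulated data. No test was run, since 1 group has no comparison. The members and the 47 gene lists were chosen with earlier results of these data known. Named genes are the 25 highest, the 4 highest and up to 4 off members of each list, all hepatocyte secreted proteins, transition factors and IGF binding proteins, the members of 15 loci and the 5 genes with the widest range. Not all of these are described, a few are not reported here, and further list members are named for their role. Flanks of HOXC, the metallothioneins and 9p were corrected or widened after values were seen. RefSeq windows of 250 bases before and 50 after a start matched 15140 of 19754 genes, and for genes with several starts the window with most GENCODE transcript starts within 100 bases was taken. The alternatives were limits of 0.5 and 5 TPM, at least 1 TPM in every library, 2 rescalings, geometric means, other limits for the range between libraries, other expression classes for promoters and each library left out.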

Additional observations from a re-analysis of the deposited data

How the results depend on the processing

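At a limit of 5 TPM instead of 1, genes on fell to 10069 of all types, hepatocyte secreted proteins to 6, hepatocyte enzymes and transporters to 6 and epithelial junction genes to 9, while protein-coding genes on numbered 9303 and mesenchymal genes 21. The share of TPM in the 25 highest genes was 18.2% after rescaling over nuclear protein-coding genes, 10.8% after rescaling with the 20 highest genes and all mitochondrially encoded genes removed, and 25.3% with geometric means. With each library left out it ran from 25.22% to 25.25%. Genes that differed 2-fold or more between libraries numbered 1890 from a mean of 1 TPM, 3 from a mean of 50 TPM, and 370 at a ratio of 1.5. Other counts for the 4 lineage lists stayed within 1.5 times. Rescaling over nuclear protein-coding genes moved 181 of 217 named genes by more than 1 SD, since it multiplies every gene of a library by a single factor. No paired analysis was possible because 1 group was used and no test was run. Depth is unknown, so a gene listed at 0 may lie under the detection limit, and levels near 1 TPM rest on wide relative spread.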
